A study of Oryzias latipes with 60 samples.

Results

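Gene expression was compared between xmrk transgenic and wild-type medaka (Oryzias latipes, a small freshwater fish) that received neither drug nor vehicle. The comparison holds 10 of the 60 whole-fish poly-A RNA sequencing libraries of the series, chosen by their labels: 5 transgenic fish, numbered 73 to 77, and 5 wild-type fish, numbered 68 to 72. All 10 were kept in ordinary housing, and like every fish of the series they were 3 to 4 weeks old and about 10 mm long. The other 50 fish, also of both genotypes, spent 5 days in petri dishes with saline, cisplatin at 70 µM, DMSO or trametinib at 20 nM. They serve here only to follow the genotype difference into fish that had no part in the untreated comparison.

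Xmrk is a mutated, constitutively active receptor tyrosine kinase of the epidermal growth factor receptor family, first known from Xiphophorus fish, in which it drives pigment cell tumours. The active receptor signals through the RAS, RAF, MEK and ERK cascade, through PI3K and through STAT5. In xmrk medaka lines described in the literature the promoter of mitf, a pigment cell transcription factor, drives the transgene. The labels name neither the promoter nor the line, nor the strain of the wild-type fish, so the transgene cannot be told apart from other inherited differences between the stocks. The untreated fish of each genotype form a single run of numbers, and a shared tank, clutch or preparation cannot be told apart from genotype either. That every library comes from a single fish was assumed from the numbering. In whole-fish RNA, fewer cells of a type and less RNA per cell cannot be told apart.

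Reads per gene were deposited for 20459 Ensembl identifiers without gene symbols, and 0 of them matched the gene table used here. Genes are therefore given by identifier, nothing is said of what they encode, and neither xmrk itself nor pigment cell or tissue markers could be looked up to check the labels. Total counts ran from 44128531 to 66449277 in the 10 untreated fish and from 34788594 to 67018564 in the series. The untreated fish detected between 19193 and 19345 genes each, and none of them was among the 6 libraries of the series with a TMM scaling factor under 0.8. This factor, which corrects for a few genes taking a large share of the reads, averaged 1.12 ± 0.0364 (SD, n = 5) in transgenic and 1.17 ± 0.0145 (n = 5) in wild-type fish (two-sided exact permutation p = 0.0397, adjusted p = 0.148 over 4 library measures; the smallest p that 5 against 5 fish allow is 0.00794). Adjusted p for the other measures, total counts, genes detected and the share of reads in the top 10 genes, was 0.148 to 0.206 by the same exact permutation test. Levels below are CPM, the reads of a gene relative to all reads of its library, scaled with these factors over all 60 libraries.

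Genotype was the second and not the first axis of variation among the untreated fish. For the components and correlations given here, log2 CPM were scaled with TMM factors from the 10 untreated libraries alone. The first principal component of log2 CPM over 18308 genes held 40.2% of the variance and ordered the fish within each genotype. Wild-type fish 69 and 70 and transgenic fish 73 and 77 lay at its positive end, with scores of 35.2 to 55.4. Wild-type fish 68 and 71 and transgenic fish 74, 75 and 76 lay at -50.6 to -21.3, and wild-type fish 72 lay between, at 6.80. The gene ENSORLG00000007271, chosen after its values had been seen in this series, stood at 31.7 to 49.05 CPM in the first 4 fish, at 9.47 CPM in fish 72 and at 0.0478 to 0.367 CPM in the other 5. The second component held 20.6% of the variance and separated the genotypes, with scores of 12.2 to 40.02 in transgenic and -40.7 to -8.89 in wild-type fish. Across genes, the log2 levels of 2 fish correlated with a median r of 0.963 among wild-type fish, 0.959 among transgenic fish and 0.956 between genotypes, a description over genes that are not independent. The biological coefficient of variation, the spread between fish beyond counting noise, was 0.257 in wild-type and 0.276 in transgenic untreated fish. It was 0.315 to 0.685 in the 8 groups kept in dishes. The highest value, 0.685, was that of transgenic saline fish, which include fish 17 (TMM factor 0.232). Next came transgenic cisplatin fish (0.547), which include fish 21 and 31 (factors 0.292 and 0.601). Wild-type DMSO fish stood at 0.424 and include fish 47 (factor 0.778), and transgenic trametinib fish stood at 0.408 and include fish 63 (0.774). Wild-type cisplatin fish, which include fish 40 (0.685), stood at 0.335. That lies within the 0.315 to 0.397 of the dish groups without a factor under 0.8. The part of the libraries with low factors in the spread was not tested.

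**Figure D1:**
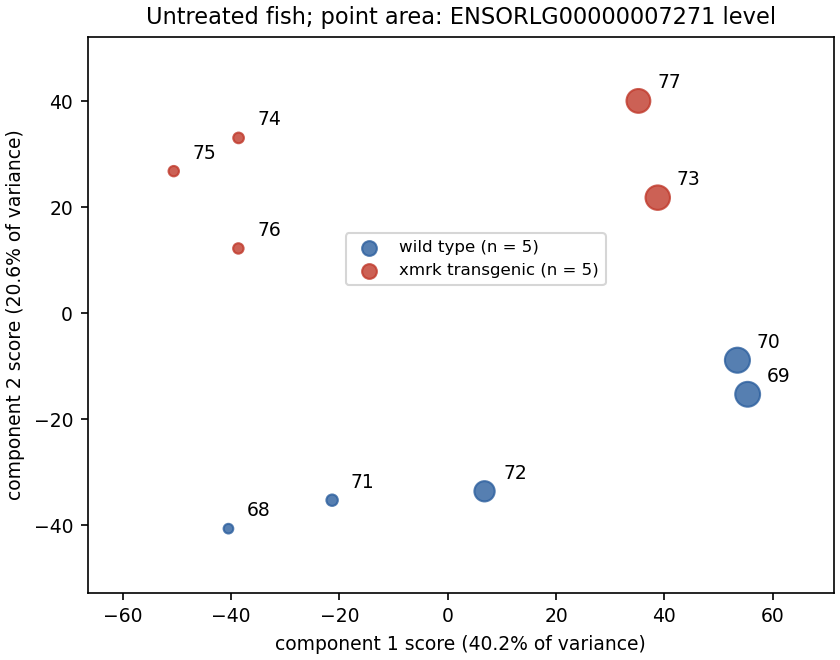
Scores of the 10 untreated fish on the first (x axis) and second (y axis) principal component of log2 CPM; colours mark genotype, numbers are fish, and point area grows with the level of ENSORLG00000007271. The genotypes lie on either side of 0 on the second axis, while each is spread along the first, with fish 69, 70, 73 and 77 at the right.

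Transgenic fish differed from wild-type fish in many genes by small amounts and in few by large ones. At an adjusted p under 0.05 (edgeR's quasi-likelihood test, Benjamini-Hochberg), the genotypes differed in 1450 of 18308 genes (7.92%), of which 880 (4.81%) stood higher in the transgenic group and 570 (3.11%) lower. The median called gene differed 1.49-fold, and 746 of the calls (51.4%) were under 1.5-fold. Another 453 lay between 1.5-fold and 2-fold, 191 between 2-fold and 4-fold and 40 between 4-fold and 8-fold. The 20 genes that differed at least 8-fold were split 7 higher to 13 lower, against 60.7% higher among all calls, a difference in share that was not tested. All 5 fish of a genotype lay on 1 side of the other 5 for 1129 called genes (77.9%), which were chosen on the same values, against 8.79% of all genes tested.

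The calls were also more often higher among abundant genes, by count and with no test. Among genes with a mean under 1 CPM, 26 were called higher and 25 lower (3.61% of 1414 genes). From 10 to 100 CPM these were 522 higher and 306 lower (9.03% of 9167), and from 100 to 1000 CPM 94 higher and 37 lower (10.7% of 1225). At 1000 CPM or more, 11 of the 15 called genes were higher in transgenic fish (15.8% of 95 genes called). The excess of higher calls depended on the scaling: with library totals alone 590 genes were called higher and 935 lower. The number of calls fell to 800 without wild-type fish 68, 823 without wild-type fish 71, 826 without transgenic fish 74 and 910 without wild-type fish 69. It fell to 85 (37 higher and 48 lower) when all 10 groups of the series, dish fish included, shared 1 fit, and was 2756 with DESeq2.

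**Figure D2:**
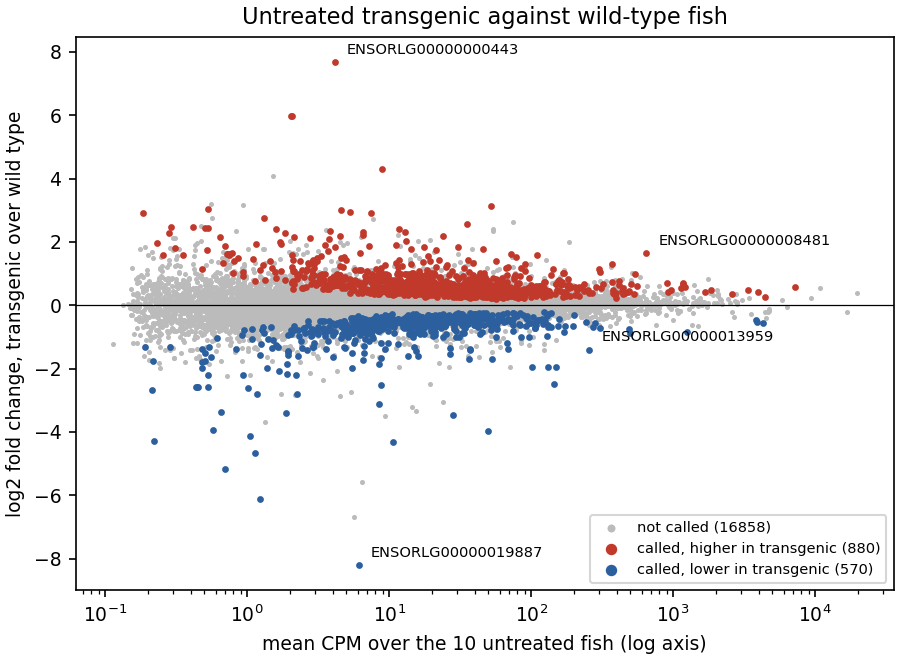
Log2 fold change of transgenic over wild-type untreated fish (y axis) against the mean level in CPM (log x axis), 1 point per gene tested; red and blue mark the 880 genes called higher and the 570 called lower, and grey the rest. Most called genes lie within a 2-fold difference, and the points farthest from 0 are ENSORLG00000000443 above and ENSORLG00000019887 below.

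The largest rise was that of ENSORLG00000000443. It stood at 8.26, 8.12, 11.4, 7.07 and 6.32 CPM in transgenic fish 73 to 77 and at 0.0318, 0.0579, 0.0169, 0.0638 and 0.0183 CPM in wild-type fish 68 to 72. The wild-type values are 1 to 4 reads per fish, 11 in all, against 2553 reads in the transgenic fish, so the gene was close to silent in 1 genotype and the size of the fold rests on those few reads. The fitted log2 fold change was 7.68 (SE 0.31, edgeR adjusted p = 3.53e-07), and it stayed called under all 18 alternatives and left-out fish that were run, at 7.50 to 7.96. SE, here and below, is the absolute log2 fold change divided by the square root of edgeR's F statistic. It was not estimated separately and can understate the uncertainty of a fold that rests on so few reads.

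ENSORLG00000008481 was the most abundant called gene with a rise of at least 2-fold. It stood at 863, 1610, 473, 1190 and 732 CPM in transgenic fish 73 to 77 and at 391, 479, 206, 269 and 203 CPM in wild-type fish 68 to 72, so the groups overlapped by 1 fish on each side. Its log2 fold change was 1.64 (SE 0.36, edgeR adjusted p = 0.0261). The call was lost when wild-type fish 70, 71 or 72 or transgenic fish 74 or 76 was left out, where the log2 fold change was 1.39 to 1.60 (edgeR adjusted p 0.0512 to 0.0651), and in the fit over all 10 groups (1.65, edgeR adjusted p = 0.406).

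The largest fall was that of ENSORLG00000019887. It stood at 11.8, 13.1, 8.66, 12.8 and 14.4 CPM in wild-type fish 68 to 72 and at 0.0347, 0, 0.0413, 0.104 and 0.0165 CPM in transgenic fish 73 to 77. The transgenic fish held 0 to 6 reads each and 12 in all, against 3522 in the wild-type fish: this gene was close to silent in the other genotype. The fitted log2 fold change was -8.20 (SE 0.41, edgeR adjusted p = 2.26e-06), called under all 18 alternatives and left-out fish, at -8.87 to -7.91. Here too the size of the fold and its SE rest on those few reads.

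ENSORLG00000013959 was the most abundant called gene with a fall of at least 2-fold. It stood at 532, 314, 436, 278 and 288 CPM in wild-type fish 68 to 72 and at 128, 120, 161, 122 and 174 CPM in transgenic fish 73 to 77. Every wild-type fish lay above every transgenic fish, with a log2 fold change of -1.40 (SE 0.19, edgeR adjusted p = 0.0028). The call was lost only in the fit over all 10 groups (log2 fold change -1.39, edgeR adjusted p = 0.0692).

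ENSORLG00000019887 was called lower in transgenic fish in each of the 4 dish conditions, with log2 fold changes of -8.54 (SE 1.28, edgeR adjusted p = 0.00287) in saline, -8.53 (SE 0.92, 8.88e-06) under cisplatin, -8.58 (SE 1.39, 0.00439) in DMSO and -8.49 (SE 1.05, 5.88e-05) under trametinib. In DMSO its wild-type fish were divided: fish 45, 46 and 47 stood at 11.2, 49.2 and 37.2 CPM, and fish 43 and 44 at 0.0358 and 0.0725 CPM, within the range of 0 to 0.0936 CPM of the transgenic DMSO fish. Under cisplatin wild-type fish 41 stood at 0.487 CPM (23 reads), above the 0 to 0.443 CPM (0 to 6 reads) of the transgenic cisplatin fish. The 0.443 CPM was 5 reads in fish 21, whose TMM factor was 0.292. The other wild-type cisplatin fish stood at 15.4 to 36.2 CPM. ENSORLG00000000443 was called under trametinib (log2 fold change 7.81, SE 1.29, edgeR adjusted p = 0.00121) and not in the other dish conditions, where the log2 fold changes were 4.56 (SE 1.59, 0.124) in saline, 3.20 (SE 1.41, 0.418) under cisplatin and 2.79 (SE 0.96, 0.22) in DMSO. In each of these 3 conditions a single wild-type fish stood at several CPM: 3.05 CPM in saline fish 35, 6.48 CPM in cisplatin fish 40 and 4.49 CPM in DMSO fish 44. The other 4 wild-type fish of each had at most 0.0696 CPM. DMSO fish 44, labelled wild type, thus stood at the level of transgenic fish for both genes. For ENSORLG00000000026, described below, it stood at 0.163 CPM, among the wild-type fish. Without it, 56.7% of the 1450 untreated calls kept their direction in DMSO fish (58.3% with it) and 74 genes were called in the interaction with DMSO (60 with it).

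The more abundant pair of genes was not called in any dish condition. ENSORLG00000008481 averaged 223 CPM ± 70.4 (SD, n = 5) in transgenic and 269 ± 129 (n = 5) in wild-type saline fish, and 296 ± 176 (n = 5) against 327 ± 228 (n = 5) in DMSO, with log2 fold changes of -0.27 (SE 0.47) and -0.13 (SE 0.80). They were -0.58 (SE 0.40) under cisplatin and 1.09 (SE 0.72) under trametinib. The interactions with saline (-1.92, SE 0.53, edgeR adjusted p = 0.285) and DMSO (-1.81, SE 0.68, 0.21) were not called either. ENSORLG00000013959 stood higher in transgenic fish in all 4 dish conditions, by log2 fold changes of 0.45 to 0.78 (edgeR adjusted p 0.226 to 0.564). The level of wild-type fish was 370 CPM ± 110 (n = 5) untreated against group means of 74.1 to 146 CPM in the dishes, while transgenic fish averaged 141 CPM ± 24.8 (n = 5) untreated and 119 to 201 CPM in the dishes.

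**Figure D3:**
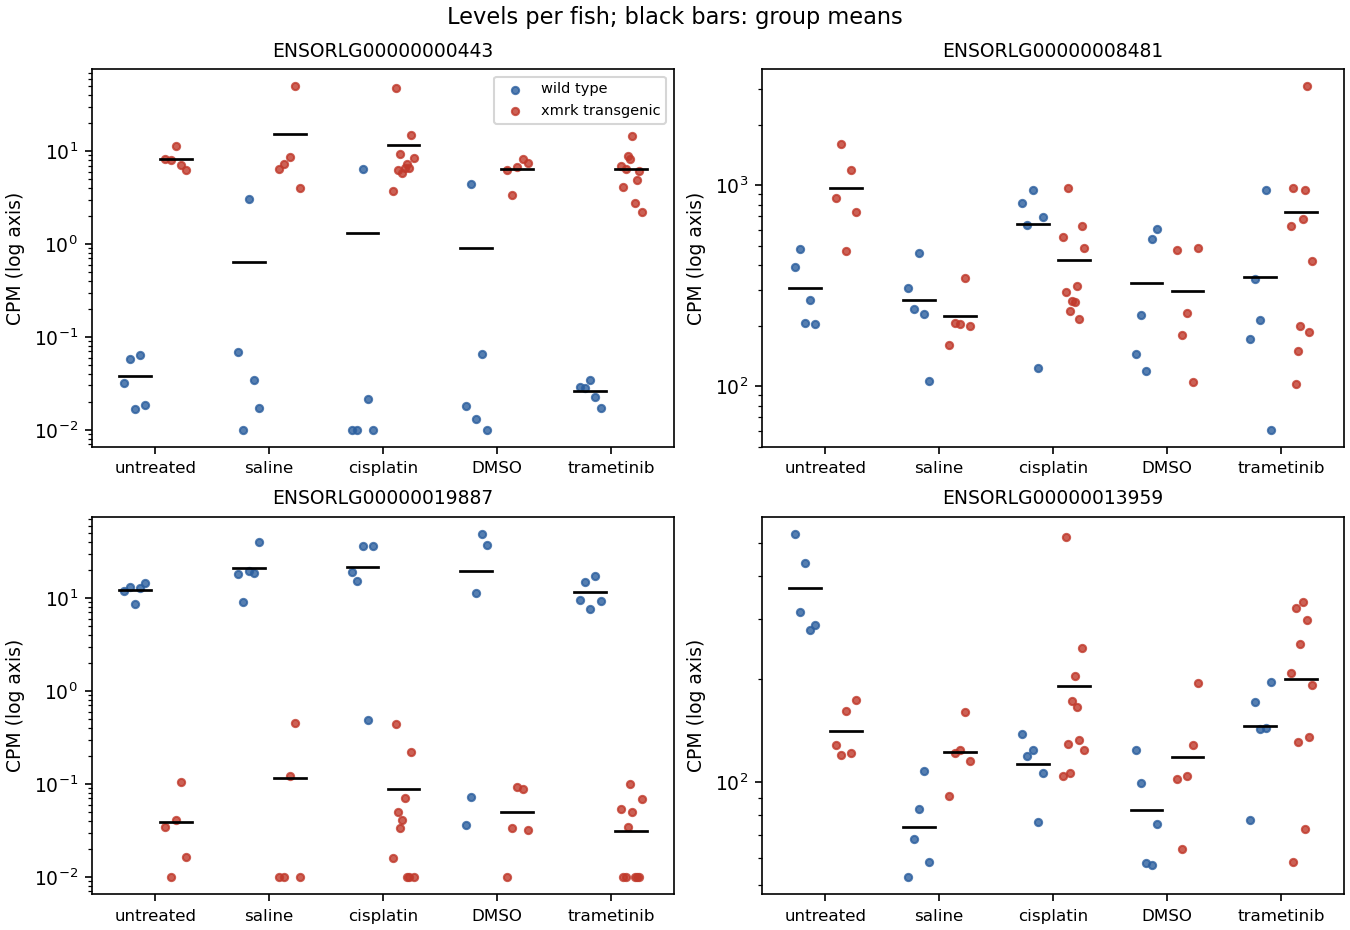
Level in CPM (log y axis) of the 4 genes named for the untreated comparison, 1 point per fish, by housing or treatment (x axis) and genotype; black bars are group means and values under 0.01 CPM are drawn at 0.01. ENSORLG00000000443 and ENSORLG00000019887 are separated by genotype but for a few wild-type fish, whereas the genotypes overlap in the dishes for ENSORLG00000008481 and ENSORLG00000013959.

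The 1450 genes were next followed as a group in the dish fish, which share no library with the untreated fish. Under trametinib 1240 of them (85.5%) differed in the same direction as in untreated fish, in saline 1031 (71.1%), under cisplatin 846 (58.3%) and in DMSO 845 (58.3%). Whether these shares differ from each other was not tested, and the drug groups held 10 transgenic fish against 5 in the vehicle groups. The median log2 fold change of the 880 genes called higher was 0.38 under trametinib and 0.32 in saline, against medians of -0.01 and -0.05 over all genes tested. It was 0.11 under cisplatin and 0.07 in DMSO, against 0.10 and 0.04 over all genes, so there these genes lay close to the rest. Of the genes called higher, 86.8% were positive under trametinib and 69.7% in saline, where 48.98% and 46.8% of all genes tested were positive. Under cisplatin 58.2% of them were positive, against 61.04% of all genes, and in DMSO 58.6% against 53.7%. The 570 genes called lower had medians of -0.28 under trametinib, -0.38 in saline, -0.07 under cisplatin and -0.11 in DMSO. They were negative in 83.5%, 73.3%, 58.6% and 57.7% of cases in that order, against 51.02%, 53.3%, 38.96% and 46.3% of all genes. Of the 251 calls of at least 2-fold (148 higher and 103 lower), between 192 (76.5%, DMSO) and 212 (84.5%, trametinib) kept their direction, with 206 in saline and 195 under cisplatin. Fewer were also called in the same direction: 82 under trametinib, 42 under cisplatin, 36 in DMSO and 25 in saline. Under cisplatin 3 were called in the opposite direction.

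The dish fish were also tested on their own. Between genotypes 805 of 18706 genes were called under trametinib (4.3%; 2.95% higher and 1.35% lower in transgenic fish) and 116 in DMSO (0.62%; 0.139% and 0.481%). Of 18690 genes, 242 were called under cisplatin (1.29%; 0.321% and 0.974%) and 52 in saline (0.278%; 0.112% and 0.166%). Of the untreated calls, 243 were called in the same direction under trametinib and 3 in the opposite direction, which is 16.8% of the untreated and 30.2% of the trametinib calls. In DMSO the shared calls were 49 and 0 (3.38% of the untreated, 42.2% of the DMSO calls), and in saline 26 and 1 (1.79% and 50%). Under cisplatin they were 57 in the same and 25 in the opposite direction (3.93% of the untreated and 23.6% of the cisplatin calls for the same direction). All 25 were genes called higher in untreated transgenic fish and lower in transgenic fish under cisplatin, where 21 genes were called higher both times. These shared counts depended on the libraries and on the scaling. Saline and cisplatin fish shared 1 fit, in which fish 17, 21, 31 and 40 had a TMM factor under 0.8. When all of these were left out, saline gave 324 calls in the same and 22 in the opposite direction. Only fish 17 among them is a saline fish, and without fish 17 alone saline gave 22 and 0. Under cisplatin leaving out all of these libraries gave 235 and 141, with 119 of the 141 again higher in untreated fish. Library totals alone gave 40 and 3 there, and the fit over all 10 groups 47 and 0.

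Single fish also moved these counts by more than 1.5 times. The 243 genes shared with trametinib were 127, 141 and 143 without wild-type trametinib fish 48, 49 and 50 respectively. The 49 shared with DMSO were 23 to 29 when transgenic DMSO fish 53, 54, 55 or 57 or wild-type DMSO fish 46 or 47 was left out. The 26 shared with saline were 10 to 17 when wild-type saline fish 33, 34 or 36 or transgenic saline fish 14, 16 or 18 was left out. The 25 opposite calls under cisplatin were 38 without transgenic cisplatin fish 21, and 14 to 16 without wild-type cisplatin fish 41, wild-type untreated fish 68 or 71 or transgenic untreated fish 77. Leaving out untreated fish 68, 71 or 77 also changed the untreated calls that were followed, to 800, 822 and 1113 respectively.

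**Figure D4:**
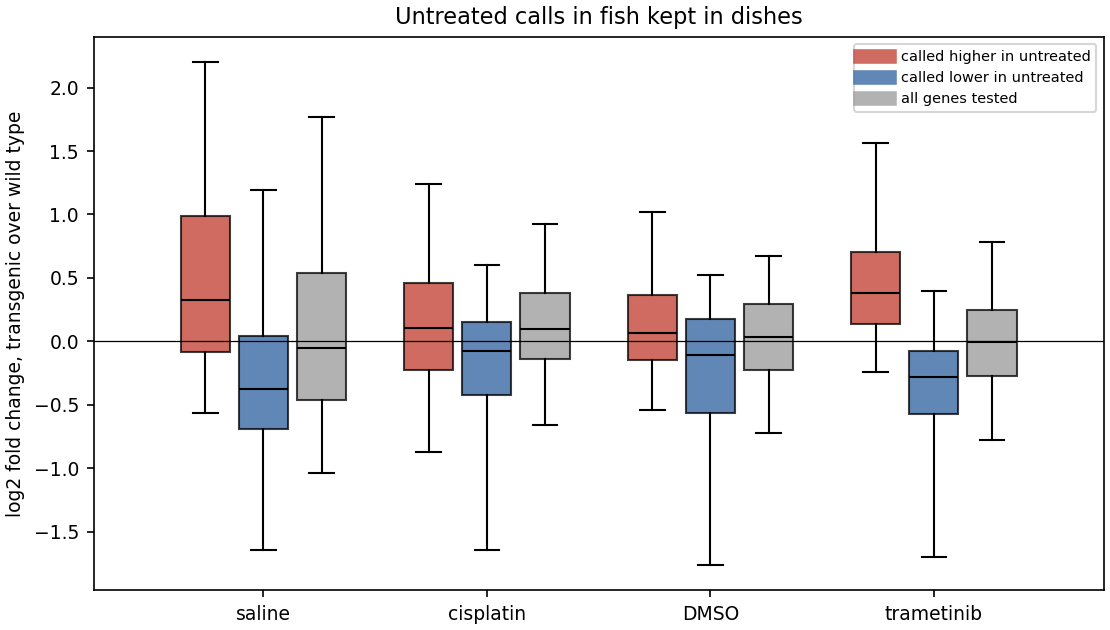
Log2 fold change of transgenic over wild-type fish (y axis) in the 4 dish conditions (x axis) for the 880 genes called higher and the 570 called lower in untreated fish and for all genes tested; boxes span the quartiles with the median as a line, and whiskers reach the 5th and 95th percentiles. The boxes of both gene groups lie apart under trametinib, overlap by a little in saline, and overlap broadly under cisplatin and in DMSO.

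Genes called in the same direction in untreated fish and in all 4 dish conditions numbered 13, and 12 of them were lower in transgenic fish. They were 12 of the 570 genes called lower in untreated fish and 1 of the 880 called higher, while 481 and 696 genes of these groups were called in none of the dish conditions. Over all genes tested, calls also leaned lower under cisplatin (0.974% lower, 0.321% higher), in DMSO (0.481%, 0.139%) and in saline (0.166%, 0.112%). Under trametinib they leaned higher (1.35% lower, 2.95% higher). The part of these leanings in the 12 against 1 was not tested. The log2 fold changes of the 12 in untreated fish ran from -8.20, that of ENSORLG00000019887, to -1.34. Saline and cisplatin fish shared 1 fit, as did DMSO and trametinib fish, so their calls rest on common estimates of the spread.

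The gene called higher in all 5 comparisons was ENSORLG00000000026, named here after its values were seen. It stood at 60.7, 8.37, 5.30, 10.0 and 0.957 CPM in untreated transgenic fish 73 to 77 and at 0.764, 0.964, 1.03, 1.07 and 0.548 CPM in wild-type fish 68 to 72. Transgenic fish 77 thus lay among the wild-type fish, and fish 73 far above the rest of its group. The log2 fold change was 4.29 (SE 1.05, edgeR adjusted p = 0.042). It was 2.80 without fish 73 and still called, but the call was lost when any wild-type fish or transgenic fish 74 or 76 was left out (edgeR adjusted p 0.0603 to 0.0977) and with limma-voom (3.10, limma adjusted p = 0.168). In the dishes its log2 fold changes were 5.94 (SE 1.26) in saline, 6.85 (SE 1.28) under cisplatin, 5.30 (SE 0.88) in DMSO and 5.26 (SE 0.83) under trametinib. The 30 transgenic dish fish spanned 0.177 CPM, in saline fish 18, to 119 CPM, in cisplatin fish 21 (TMM factor 0.292). No wild-type dish fish exceeded 0.507 CPM. Fish 18 lay within the range of the wild-type saline fish, 0.127 to 0.375 CPM.

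Whether the genotype difference of untreated fish changed in vehicle fish was tested directly, as an interaction of genotype and condition. Vehicle fish differed from untreated fish in the dish, in the vehicle and in their runs of numbers, which cannot be told apart here. The tests for saline and for DMSO share the untreated fish. Against saline, edgeR called 9 of 18632 genes (0.0483%), 2 with a more positive (0.0107%) and 7 with a more negative (0.0376%) transgenic difference in saline, and 7 of the 9 were untreated calls. For each of the 9 the genotype difference had opposite signs in untreated and saline fish. The untreated difference is subtracted in this test, so called genes tend to have a large untreated difference and opposite signs. These patterns are thus no result apart from the calls, and 7.92% of all genes tested were untreated calls. The number of genes called was 84 without transgenic saline fish 17, whose TMM factor was 0.232.

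ENSORLG00000020069 showed the largest such change. In untreated fish it stood at 733, 551, 517, 901 and 686 CPM in transgenic fish 73 to 77 and at 365, 521, 372, 448 and 496 CPM in wild-type fish 68 to 72. In saline it stood at 8.86, 14.1, 10.4, 12.4 and 11.6 CPM in transgenic fish 14 to 18 and at 330, 152, 248, 293 and 27.1 CPM in wild-type fish 33 to 37. The gene was thus a little higher in transgenic fish in ordinary housing, with an overlap of the groups at 517 and 521 CPM, and low in every transgenic saline fish. The log2 difference of the genotype differences was -4.81 (SE 0.59, edgeR adjusted p = 0.00192), and against DMSO it was -2.34 (SE 0.55, 0.0673). In DMSO the transgenic fish averaged 46.4 CPM ± 22.6 (n = 5) and the wild-type fish 150 ± 101 (n = 5). Under cisplatin the gene was also called lower in transgenic fish (log2 fold change -3.21, SE 0.68, edgeR adjusted p = 0.0134). Under trametinib it varied widely in both genotypes, from 15.3 to 1020 CPM in transgenic and 11.9 to 950 CPM in wild-type fish. It was not called there (log2 fold change 0.16, SE 0.82, edgeR adjusted p = 0.93).

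ENSORLG00000017106, the most abundant other gene with a more negative difference in saline, followed the same order. It averaged 521 CPM ± 101 (SD, n = 5) in transgenic and 304 ± 59.4 (n = 5) in wild-type untreated fish, but 91.6 ± 26.0 (n = 5) and 206 ± 29.0 (n = 5) in saline, where all transgenic fish (54.1 to 118 CPM) lay under all wild-type fish (157 to 226 CPM). The interaction was -1.95 (SE 0.31, edgeR adjusted p = 0.0135) on the log2 scale. In saline alone the genotype difference was not called (log2 fold change -1.17, edgeR adjusted p = 0.0889). Under cisplatin the gene was called lower in transgenic fish (-1.90, edgeR adjusted p = 6.87e-05). Under trametinib the difference was positive and not called (1.25, edgeR adjusted p = 0.0809).

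The 2 genes that became relatively higher in transgenic saline fish were ENSORLG00000013959 and ENSORLG00000001530. ENSORLG00000013959 moved from 141 CPM (transgenic) against 370 CPM (wild type) in untreated fish to 123 ± 24.9 and 74.1 ± 22.2 CPM (n = 5 each) in saline (interaction 2.11, SE 0.33, edgeR adjusted p = 0.0135). ENSORLG00000001530 spanned 2.14 to 3.75 CPM (transgenic) and 3.29 to 4.32 CPM (wild type) in untreated fish, and 22.8 to 28.3 CPM (transgenic) and 8.36 to 14.7 CPM (wild type) in saline (interaction 1.60, SE 0.25, edgeR adjusted p = 0.0135). All transgenic saline fish lay above all wild-type saline fish for the latter gene, whereas in untreated fish the groups overlapped and the gene was not called (log2 fold change -0.40, edgeR adjusted p = 0.14). With library totals alone ENSORLG00000013959, ENSORLG00000001530 and ENSORLG00000017106 lost their call in edgeR (adjusted p = 0.548, 0.813 and 0.548), and in the fit over all 10 groups these and ENSORLG00000020069 did (adjusted p = 0.14 each).

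Against DMSO, edgeR called 60 of 18623 genes (0.322%), 7 with a more positive (0.0376%) and 53 with a more negative (0.285%) transgenic difference in DMSO, and 40 of the 60 were untreated calls. All 53 stood higher in transgenic than in wild-type untreated fish and all 7 lower, and for 57 of the 60 the sign of the fitted genotype difference was opposite in DMSO. The untreated difference is subtracted here too, so the choice of genes favours these patterns, and they are no separate result. The number of genes called was 1 without transgenic DMSO fish 57 or wild-type untreated fish 68 or 71, and 261 without wild-type DMSO fish 43. It lay between 11 and 35 when 1 of wild-type fish 46, 69, 70 and 72 was left out, or 1 of transgenic fish 53, 54, 55, 56, 74, 75, 76 and 77. With limma-voom it was 9 and with DESeq2 617.

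Among genes whose difference was at least 2-fold more positive in DMSO, ENSORLG00000009257 was the most abundant after ENSORLG00000013959, whose interaction was 1.89 (SE 0.385, edgeR adjusted p = 0.045). ENSORLG00000009257 stood at 25.3, 27.4, 27.4, 25.2 and 29.4 CPM in untreated wild-type fish and at 9.94, 17.3, 16.8, 15.1 and 10.4 CPM in untreated transgenic fish. In DMSO it stood at 9.84, 10.6, 13.9, 8.72 and 8.21 CPM in wild-type fish 43 to 47 and at 13.1, 11.9, 14.0, 10.2 and 13.1 CPM in transgenic fish 53 to 57. The untreated wild-type fish were thus the high group, above every fish of the other 3 groups (interaction 1.21, SE 0.23, edgeR adjusted p = 0.0446).

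The genes named for a more negative difference in DMSO were ENSORLG00000004253, the largest change, and ENSORLG00000006624, the most abundant of at least 2-fold. ENSORLG00000004253 averaged 187 CPM ± 114 (SD, n = 5) in transgenic and 69.2 ± 37.4 (n = 5) in wild-type untreated fish, and 48.3 ± 21.5 (n = 5) and 186 ± 99.5 (n = 5) in DMSO (interaction -3.39, SE 0.70, edgeR adjusted p = 0.0459). ENSORLG00000006624 averaged 1200 CPM ± 256 and 942 ± 156 in transgenic and wild-type untreated fish, and 1030 ± 303 and 2880 ± 1310 in DMSO (n = 5 each, interaction -1.86, SE 0.39, edgeR adjusted p = 0.045). For both genes the groups overlapped in untreated and in DMSO fish. Neither was called between genotypes in untreated fish (edgeR adjusted p = 0.119 and 0.199 in that order). In DMSO fish alone neither was called either (edgeR adjusted p = 0.2 and 0.0934). Of the 4 genes named against DMSO, ENSORLG00000009257 kept its call under 6 of 9 alternatives and for 8 of 20 left-out fish. ENSORLG00000013959 kept it under 4 and for 3, ENSORLG00000006624 under 4 and for 2, and ENSORLG00000004253 under 3 and for 5. All 4 lost it with library totals alone, with limma-voom and in the fit over all 10 groups.

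**Figure D5:**
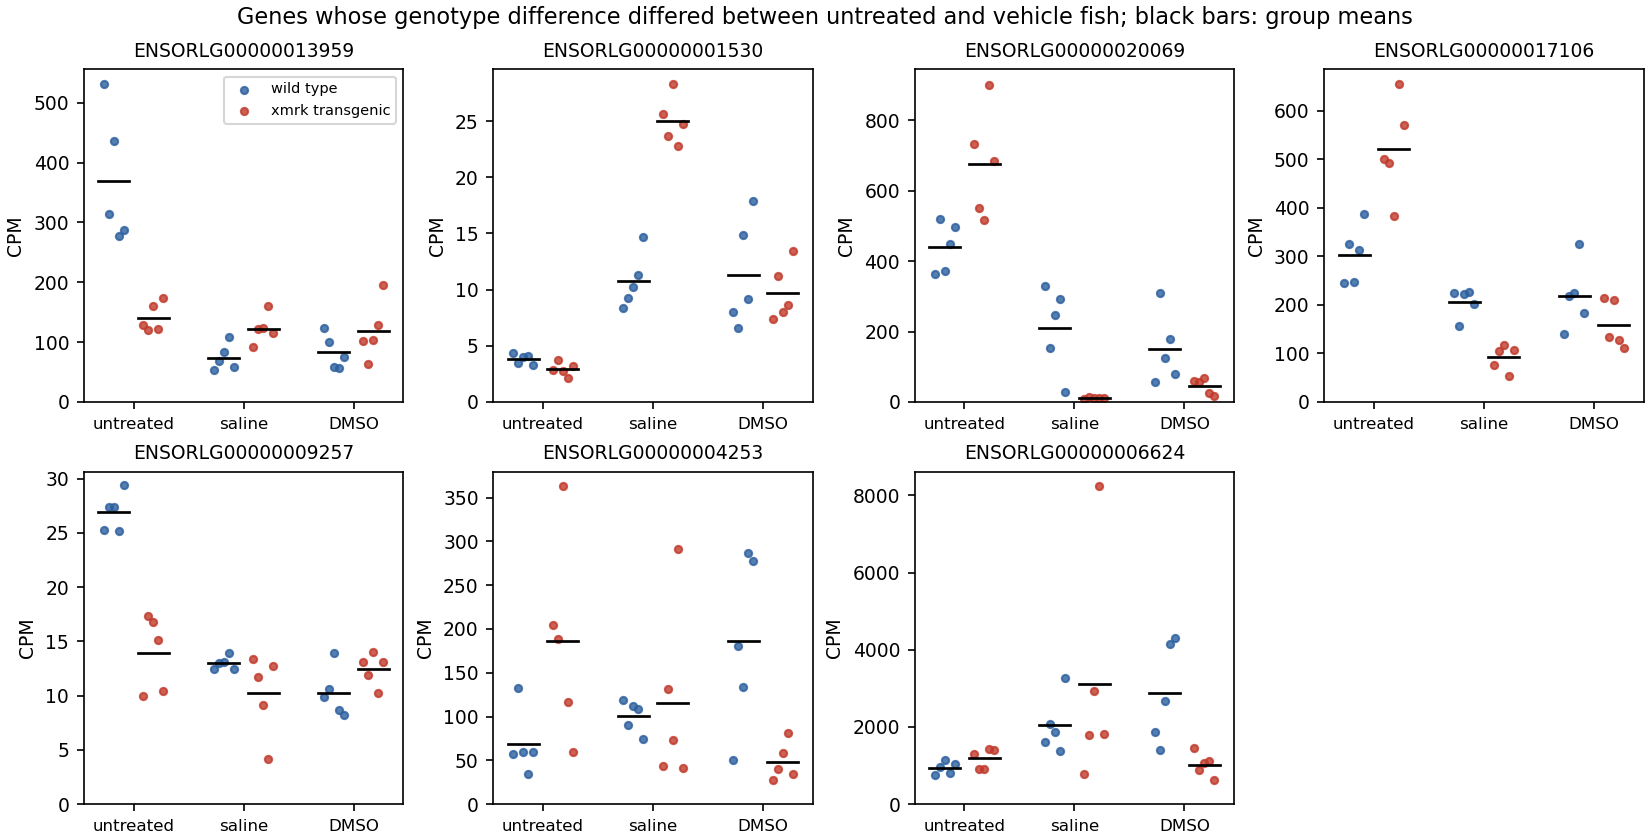
Level in CPM (y axis, from 0) of the 7 genes named for a genotype difference that differed between untreated and vehicle fish, 1 point per fish, by condition (x axis) and genotype. Black bars are means of 5 fish. ENSORLG00000020069 is at 8.86 to 14.1 CPM in transgenic saline fish, and untreated wild-type fish are the high group for ENSORLG00000013959 and ENSORLG00000009257.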

How the data were processed

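The authors deposited raw read counts per gene (whole numbers, 20459 genes by 60 fish, each column matched to a sample by its title). Per the submitters' processing notes TopHat2 (listed version 2.2.4) and featureCounts were used. The sources used here do not give the genome build, the annotation, the strand setting or the handling of multi-mapping reads, and overlapping or near-identical genes may share reads. Since 0 identifiers matched a symbol, 25 gene lists could not be tested.

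The tests were run with edgeR 4.0.16 in R 4.3.3, using filterByExpr, TMM factors, robust dispersions and quasi-likelihood F tests, adjusted over all genes. Each SE was derived from the F statistic and the log2 fold change and is not a separate estimate. Untreated fish, saline with cisplatin fish and DMSO with trametinib fish were fitted separately, and each interaction in its 20 libraries. DESeq2 1.42.0 and limma 3.58.1 (voom) were alternatives. Within the untreated groups 20 pairs of libraries differed by a chi-square of at least 48.5 per gene, so none was a duplicate. The edgeR p-values set a difference between groups against the spread between fish within groups. They do not cover a tank or clutch that the fish of a group may share.

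Named genes: per comparison, in each direction, the called gene with the largest fold change (average log2 CPM of at least 1; groups not overlapping in the untreated comparison) and the most abundant called gene of at least 2-fold. Members and lists were chosen with earlier results of these data known.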

Additional observations from a re-analysis of the deposited data

Results flagged for a closer look

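In 14 of 82 groups of fish examined 1 fish stood far from the rest of its group by Dixon's criterion, which chance alone meets in about 1 of 20 independent groups. The same fish and chosen genes recur in the 82 groups, so the 14 cannot be read against that rate. ENSORLG00000000443 stood apart in transgenic cisplatin fish 21 (48.5 CPM), transgenic saline fish 17 (49.9 CPM), wild-type cisplatin fish 40 (6.48 CPM), wild-type DMSO fish 44 (4.49 CPM) and wild-type saline fish 35 (3.05 CPM). ENSORLG00000019887 stood apart in transgenic fish 21 (0.443 CPM) and 17 (0.452 CPM), ENSORLG00000013959 in fish 21 (519 CPM), and ENSORLG00000008481 in transgenic saline fish 17 (344 CPM) and transgenic trametinib fish 65 (3100 CPM). Fish 17, 21 and 40 are among the 6 libraries with a TMM factor under 0.8, and CPM is divided by this factor. Fish 17 held 3046 reads of ENSORLG00000008481, the fewest of its group (3046 to 12163), and 442 of ENSORLG00000000443 (group 203 to 499). Fish 21 held 5857 reads of ENSORLG00000013959 (group 5811 to 11472) and 548 of ENSORLG00000000443 (group 230 to 555). For ENSORLG00000019887 fish 17 held 4 reads (group 0 to 7) and fish 21 held 5 (group 0 to 6). Fish 40 held 237 reads of ENSORLG00000000443, the most of its group. The part of the factor in these levels was not tested. ENSORLG00000000026 stood apart in untreated transgenic fish 73 (60.7 CPM) and transgenic DMSO fish 55 (35.3 CPM), and ENSORLG00000004253 in untreated wild-type fish 69 (133 CPM). The TMM factor of untreated transgenic fish 73 was 1.18, above the others of its group.

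The genotype difference itself differed between untreated and saline fish, by edgeR's interaction test, for ENSORLG00000020069 (-4.81 on the log2 scale), ENSORLG00000017106 (-1.95), ENSORLG00000013959 (2.11) and ENSORLG00000001530 (1.60). Between untreated and DMSO fish it differed for ENSORLG00000004253 (-3.39), ENSORLG00000006624 (-1.86), ENSORLG00000013959 (1.89) and ENSORLG00000009257 (1.21). Of 29 alternatives and left-out fish, these DMSO calls were lost in 21, 23, 22 and 15 in that order.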

How the results depend on the processing

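No paired analysis was possible because no fish number occurs in more than 1 group. Of the 1450 untreated calls 251 differed at least 2-fold. DESeq2 called 2756 genes and the fit over all 10 groups 85; 6 of 9 alternatives stayed within 1.5 times of 1450, and leaving out 1 fish gave 800 to 1590. With the level of ENSORLG00000007271 as a covariate, added after the data were seen, 1306 genes were called, 1182 of them shared with the 1450. The saline interaction count of 9 became 1 with library totals alone, 118 with DESeq2 and 6 with limma-voom. It was 84 when libraries with a TMM factor under 0.8 were left out, and 7 to 84 with 1 fish left out. In edgeR over all 10 groups it was 0 (3197 of 18880 genes at an unadjusted p under 0.05). The DMSO interaction count of 60 became 617 with DESeq2, 9 with limma-voom and 19 with the covariate. With 1 fish left out it was 1 to 261. In edgeR with library totals alone it was 0 (3490 of 18623 genes at an unadjusted p under 0.05). It was also 0 in edgeR over all 10 groups (850 of 18880 genes unadjusted). Library totals alone moved the median log2 interaction of all genes from -0.07 to -0.26 for saline and from -0.02 to 0.26 for DMSO.

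The share of untreated calls with the same direction was, in saline, 76.1% with library totals alone, 73.9% with the covariate, 78.1% when those libraries were left out and 90.6% over all 10 groups (67.5% to 78.4% with 1 fish left out). Under cisplatin it was 52.1% with library totals and 84.7% over all 10 groups (52.5% to 63.6%). In DMSO it was 55.2% with library totals, 54.1% with DESeq2, 55.6% with a filter of 1 CPM in 5 fish, 66.3% when those libraries were left out and 88.2% over all 10 groups (54.3% to 67.0%). Under trametinib it was 82.0% with DESeq2 and 90.6% over all 10 groups (78.9% to 88.0%). Each share is of the untreated calls of its own setting: 85 over all 10 groups, 1525 with library totals alone and 2756 with DESeq2. With DESeq2 the untreated calls also called in the same and the opposite direction were 517 and 14 under trametinib, 198 and 15 in saline, 160 and 81 under cisplatin and 146 and 7 in DMSO. With 1 fish left out, the genotype difference (transgenic less wild type) lay between -0.0716 and -0.0502 in the TMM factor, 34.05 and 64.8 in genes detected, and 0.504 and 0.868 percentage points in the share of the 10 most abundant genes. The cause of these changes was not tested.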
